A study of Mus musculus with 14 samples.

Results

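The genes described are 39 genes for collagen chains and for the enzymes and chaperone that process them, chosen by name: 25 chains and 14 processing genes. All 39 were found among the 55487 gene identifiers of the count table, and 36 of them (23 chains and 13 processing genes) were among the 15528 genes with enough reads to be tested. RNA was sequenced from whole hearts of untreated male C57BL/6 mice in 14 libraries, 1 per labelled replicate. At 2 months of age there were 3 wild-type (WT) and 3 knockout (KO) hearts, and at 15 months 4 of each. The knockout mice are Myh6-Cre-Sqstm1fl/fl: Sqstm1, the gene for the autophagy receptor p62, is flanked by loxP sites and cut out by a Cre recombinase whose promoter, that of Myh6, works in heart muscle cells. The controls are labelled wild type, and the labels say nothing about Cre or floxed alleles in them. The deletion is therefore aimed at muscle cells, whereas most heart collagen is known to be made by other cells, and a whole heart also holds atria, valves, vessels and fat. Since the RNA came from whole hearts, fewer cells of a type and less RNA per cell cannot be told apart.

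Collagens are the main structural proteins of the spaces between cells. Their chains are hydroxylated on proline by prolyl 4-hydroxylases and on lysine by lysyl hydroxylases inside the endoplasmic reticulum, wind around each other into a rope-like helix that the chaperone Hsp47 (Serpinh1) holds, and are trimmed by procollagen proteases and cross-linked by lysyl oxidases once outside. In the heart, fibrillar collagens I and III made by fibroblasts carry tension between muscle bundles, and collagen IV forms the basement membrane around muscle cells and capillaries.

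Levels are given in CPM, counts per 1000000 counts of a library total scaled by the trimmed mean of M values (TMM), and log2 fold changes with their standard error (SE) come from edgeR's quasi-likelihood test. A gene was called when its p-value was under 0.05 after Benjamini-Hochberg adjustment over the 15528 genes. Total counts ran from 20218992 to 30404416 per library. Sqstm1 itself stood at 139 to 177 CPM in the 3 wild-type and 14.7 to 19.2 CPM in the 3 knockout hearts at 2 months, and at 173 to 238 and 14.6 to 37.0 CPM in the 4 and 4 hearts at 15 months, so the labels and the targeted gene match. The labels do not say that each library came from a separate animal, so p-values measure only the spread between libraries, which may be technical.

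Several libraries stood apart in ways that touched the collagen genes. Wild-type replicate 1 at 2 months held 638 CPM of Myl7, the atrial myosin light chain, against 0.0597 to 0.303 CPM in the other 5 hearts of that age. At 15 months Myl7 stood between 15.0 and 58.1 CPM in wild-type replicates 1, 2 and 4 and in knockout replicate 1, and under 1 CPM in the other 4 hearts. Mitochondrial transcripts took the largest share of counts, 46.0%, in knockout replicate 1 at 15 months, against 27.5% to 40.7% elsewhere. A further measure was the length slope, the slope of a library's log2 level relative to the mean of all libraries against log2 exon length over 12548 genes. It lay between -0.173 and -0.012 at 2 months and between -0.077 and 0.221 at 15 months, with the highest value in knockout replicate 3 at 15 months, so that longer transcripts had relatively more reads in most old hearts. The part of atrial tissue, RNA quality or length in the results was not tested. Values without one of these libraries, or with the length slope as covariate, a setting added after the data were seen, stand beside the results they moved most.

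The chains with the most transcripts per length belonged to basement membrane and fibrillar collagens. Read as CPM per kilobase (kb) of exon, a scale on which genes can be compared, the mean of the 4 groups was 22.5 for Col4a1 and 20.9 for Col4a2, the chains of the common basement membrane collagen. Col3a1, the type III fibrillar chain, followed at 12.9. Col6a1 of the beaded filaments stood at 7.26, Col15a1 of the capillary basement membrane zone at 6.44, Col4a5 at 4.86, and Col1a1 and Col1a2, the chains of type I collagen, at 4.81 and 4.1 CPM per kb. In a single library the level of Col1a1 ran from 1.3 to 13.3, which overlaps the range of each of these chains (2.59 to 17.4 for Col6a1, 2.42 to 13.6 for Col15a1, 2.85 to 6.46 for Col4a5). Because many chains were high or low in the same hearts, overlapping ranges do not settle the order within a library. Among the minor fibrillar chains that regulate fibril width, Col5a1, Col5a2 and Col5a3 had 2.38, 1.47 and 1.0 CPM per kb. Col8a1 of the vessel wall stood at 2.17 and the fibril-associated Col14a1 at 2.0. The lowest tested chains were Col27a1 at 0.136, Col12a1 at 0.146, the transmembrane Col23a1 at 0.253, Col4a3 at 0.262, Col16a1 at 0.364 and Col4a4 at 0.545 CPM per kb.

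Among the processing genes the chaperone Serpinh1 had the highest level per length of all members, 58.3 CPM per kb on average and 39.9 to 73.6 in single libraries. P4ha1, a catalytic subunit of prolyl 4-hydroxylase, stood at 8.14 and P4ha2, the other catalytic subunit tested, at 3.19. The lysyl hydroxylases Plod1, Plod2 and Plod3 had 7.24, 4.72 and 3.47 CPM per kb. Of the lysyl oxidases, Loxl1 was at 4.89, Loxl2 at 1.33, Lox at 0.758 and Loxl3 at 0.455. Pcolce, the enhancer of procollagen C-proteinase, stood at 5.22, the C-proteinase Bmp1 at 1.45 and the N-proteinase Adamts2 at 1.07. The remaining chains were Col6a2 at 4.42, Col6a3 at 2.73, Col18a1, the source of endostatin, at 0.899 and Col6a6 at 0.805 CPM per kb.

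**Figure D1:**
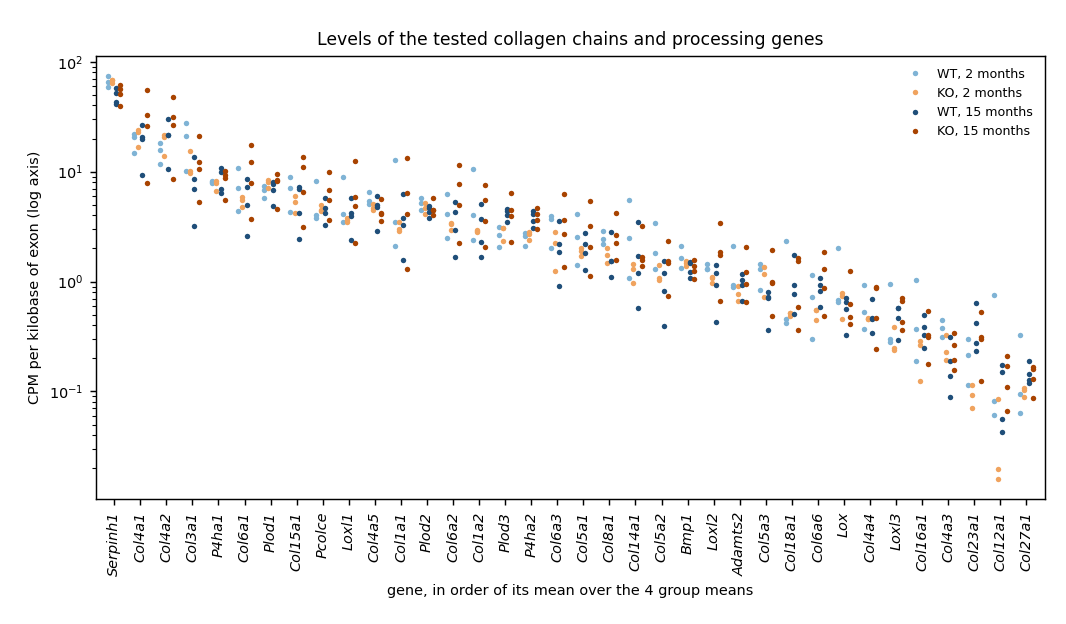
CPM per kilobase of exon (log axis) of each of the 36 tested members, ordered by the mean of the 4 group means, with 1 point per library and a colour per group. Serpinh1, Col4a1, Col4a2 and Col3a1 lead, and the points of a chain spread more widely than those of most processing genes.

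Another 3 members had too few reads to be tested. Col8a2, the partner of Col8a1, had 133 reads over all 14 libraries, 68 of them in wild-type replicate 1 at 2 months, and was at 0 in 3 libraries. Col11a1, a minor fibrillar chain best known from cartilage, had 68 reads, 43 of them in that same library, and 4 libraries at 0. P4ha3 had 19 reads, at most 5 in a library, and 5 libraries at 0.

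The chains varied between hearts of the same group far more than most genes did. The median SD within groups on the log2 scale was 0.27 over all tested genes, with quartiles of 0.2 and 0.37. It was 0.7 over the 23 tested chains, from 0.3 to 1.05, and 0.38 over the 13 tested processing genes, from 0.18 to 0.68. Collagen VI chains had a median of 0.73, fibril-associated chains 0.82, fibrillar chains 0.66 and collagen IV chains 0.57. Lysyl oxidases, at 0.6, were closer to the chains, whereas lysyl hydroxylases (0.33), prolyl 4-hydroxylases (0.26) and Serpinh1 (0.21) were closer to the rest of the genes. Col1a1 had the largest value among the members, and 99.4% of all tested genes varied less, while only 20.4% varied less than Plod2.

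In a few hearts most members were high or low together. Of the 36 tested members, 28 had their highest level of the 6 young hearts in wild-type replicate 1, the heart with atrial transcripts, which was highest for 20.0% of all tested genes. Of the 8 old hearts, knockout replicate 3 was highest for 25 members and for 21% of all genes. Wild-type replicate 2 was lowest for 17 members (19.8% of all genes), and knockout replicate 1 was lowest for 16 (17.7%). The median member, on the log2 scale relative to the mean of all libraries, stood at 0.69 in wild-type replicate 1 at 2 months and at 0.92 in knockout replicate 3 at 15 months, against -0.73 and -0.61 in the latter pair.

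**Figure D2:**
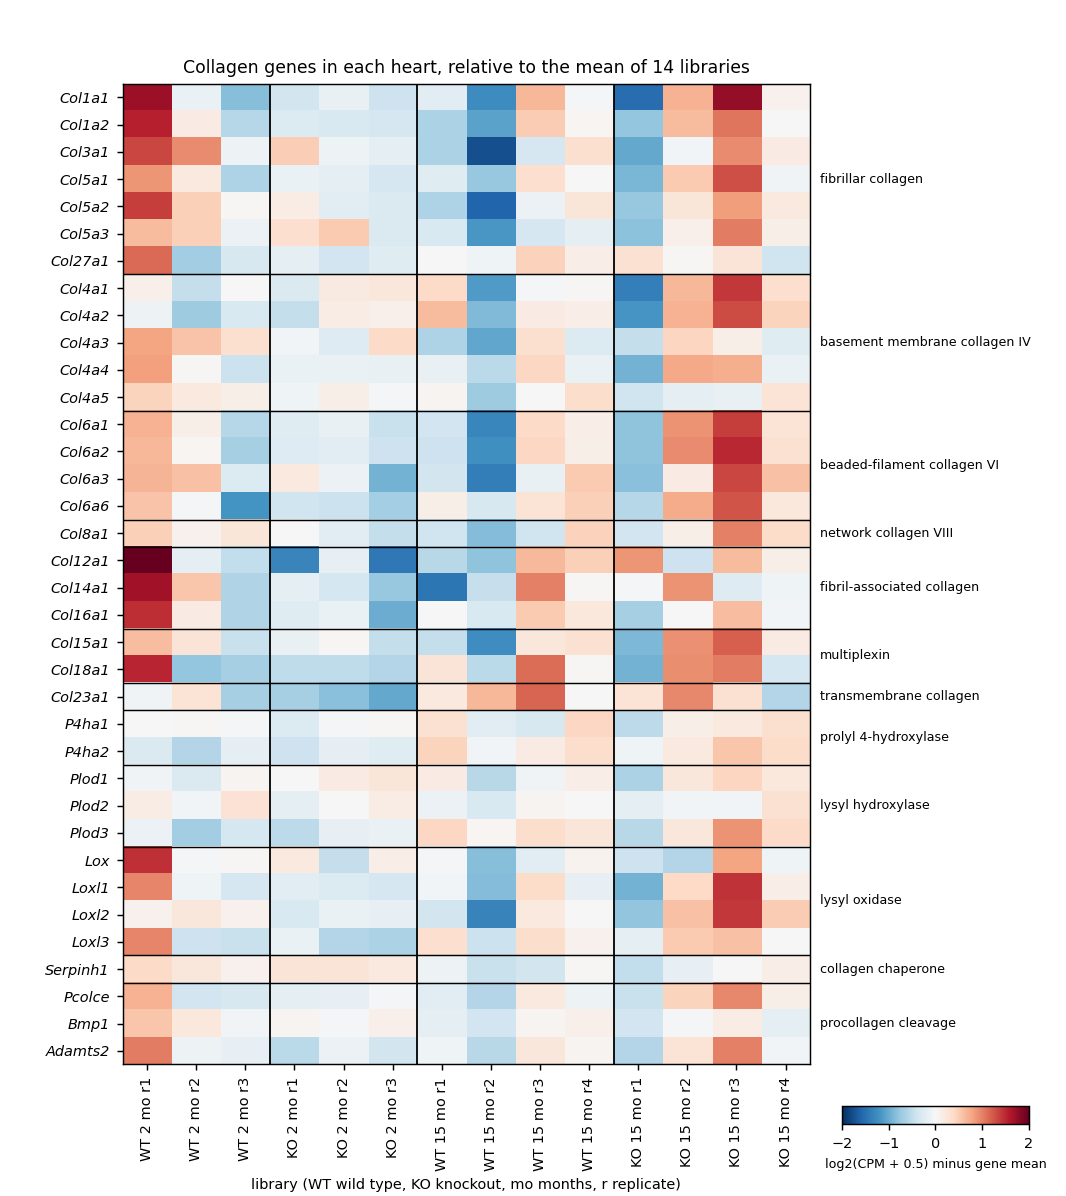
Heat map of log2(CPM + 0.5) of the 36 tested members minus the gene's mean over the 14 libraries, with libraries in columns by group and genes in rows by role. Wild-type replicate 1 at 2 months and knockout replicate 3 at 15 months are red for most rows, whereas 2 old hearts, replicate 2 of wild type and replicate 1 of the knockout, are blue.

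Markers of cell types were read in the same hearts. In wild-type replicate 1 at 2 months, the median relative log2 level was 0.93 for 8 fibroblast markers (Pdgfra, Tcf21, Dcn and others), 2.82 for the 6 tested genes of valve and cartilage-like matrix (such as Fmod and Comp), 6.47 for 4 atrial genes and -0.17 for 8 endothelial markers. In knockout replicate 3 at 15 months it was 0.21 for fibroblast, 0.3 for valve and cartilage, and 1.16 for endothelial markers. Of the low hearts at 15 months, wild-type replicate 2 stood at -0.72 for fibroblast, -0.39 for endothelial and 0.6 for atrial markers, and knockout replicate 1 at 0.01, -0.44 and 2.87, with 1.02 for fat cell markers. The summed level of the 8 fibroblast markers ran from 837 to 2150 CPM in young wild-type, 890 to 1080 in young knockout, 651 to 1300 in old wild-type and 989 to 1640 in old knockout hearts. The 8 endothelial markers summed to 702 to 937, 822 to 988, 760 to 954 and 787 to 1550 CPM in the same order. The valve and cartilage genes summed to 2.9 to 78.6, 3.41 to 4.75, 7.69 to 28.3 and 12 to 22.5 CPM, and none of these lists had a gene at 0 in every library. In wild-type replicate 1 at 2 months the medians were also 2.61 for fat cell, 1.31 for activated fibroblast, 1.07 for epicardial and 0.73 for smooth muscle and mural markers. Epicardial markers were as high in knockout replicate 3 at 2 months (1.08) and higher in wild-type replicate 3 at 15 months (1.5). The summed level of the smooth muscle and mural markers was not raised in that young wild-type heart, at 2160 CPM against 2300 and 2400 CPM in the others and 2250 to 2480 CPM in young knockout hearts. The 8 cardiac muscle genes, which check the tissue, summed to between 31300 and 46500 CPM in every library. The part of these cells in the collagen levels was not tested.

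**Figure D3:**
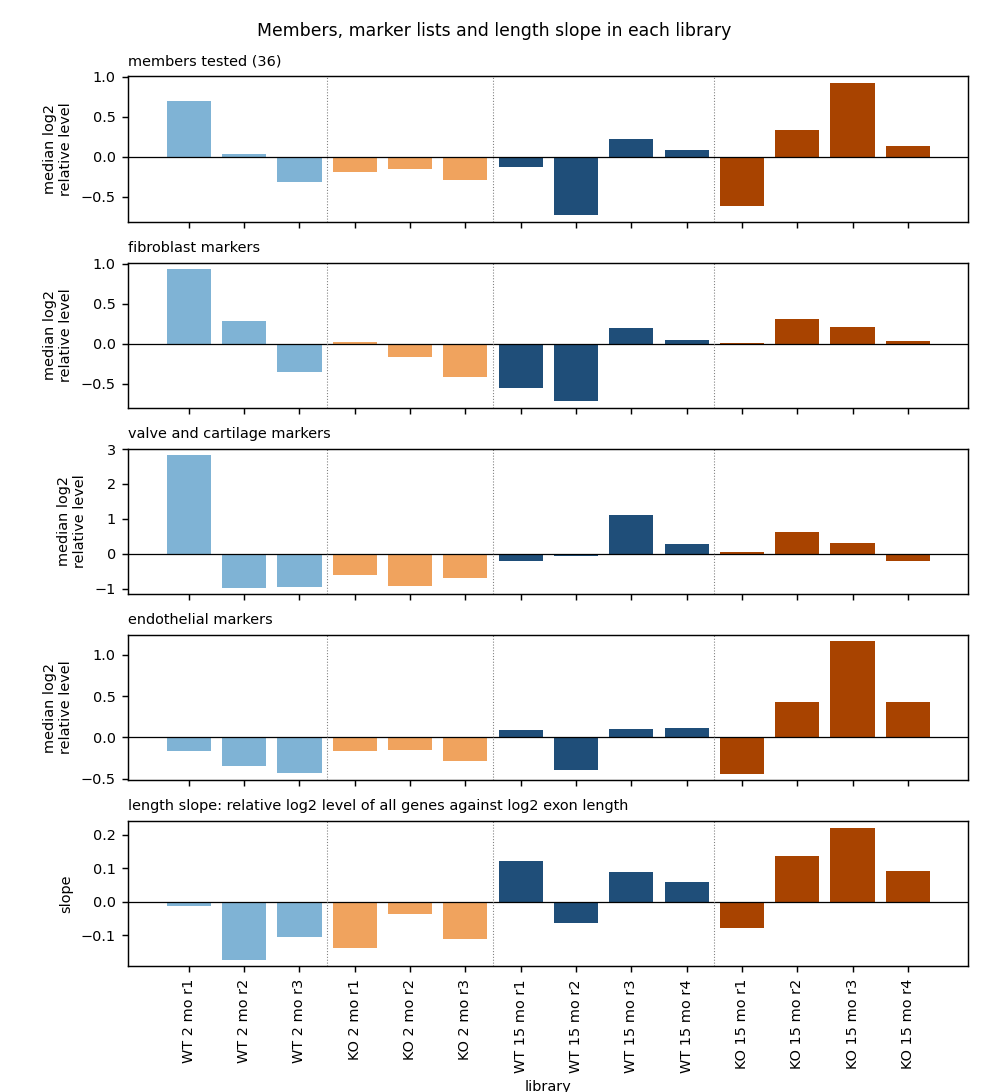
Bars give, for each library, the median relative log2 level of the 36 tested members and of fibroblast, valve and cartilage, and endothelial markers, and in the lowest panel the length slope (log2 level per log2 exon length). Members and valve markers are both high in wild-type replicate 1 at 2 months, and members, endothelial markers (1.16) and length slope (0.221) in knockout replicate 3 at 15 months.

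The comparison of knockout with wild type at 2 months asked whether losing p62 in muscle cells altered collagen transcripts in the young heart. Of the 36 tested members, 31 had a lower mean in knockout hearts (50.3% of all genes did), with a median log2 fold change of -0.50, but no member was called. The 7 fibrillar chains were all below 0, with a median of -0.74, as were the 4 collagen VI chains (-0.47), the 3 fibril-associated chains (-1.29) and the 4 lysyl oxidases (-0.69). Prolyl 4-hydroxylases (-0.01), lysyl hydroxylases (0.11) and Serpinh1 (0.00) showed no such offset. Only 1 gene in all, 0.00644% of those tested, was called, and that was Sqstm1. At an unadjusted p under 0.05 there were 3 members, against 3.18% of all genes, and DESeq2 and limma voom also called 0 members.

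Much of the lower median rested on wild-type replicate 1, although some members changed little without it. Col1a1 read 84.3, 22.9 and 13.9 CPM in the wild-type and 19.7, 22.9 and 18.8 CPM in the knockout hearts. Col3a1 read 270, 205 and 99.9 CPM in wild-type and 151, 99.7 and 94.6 CPM in knockout hearts. Replicate 1 is the high heart in both, the groups overlap, and the log2 fold changes were -0.98 (SE 0.74) for Col1a1 and -0.74 (SE 0.50) for Col3a1. Without that library, Col1a1 stood at 0.17 and Col3a1 at -0.40, the median over the 36 members was -0.06, and 23 members remained below 0. Fibrillar chains, collagen VI chains and lysyl oxidases then had medians of -0.06, -0.05 and -0.04.

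The 3 members with the smallest p-values at 2 months were fibril-associated collagens. Col12a1, abundant in tendon and other dense matrix, read 11.6, 1.25 and 0.927 CPM in wild-type and 0.303, 1.29 and 0.243 CPM in knockout hearts. Col14a1 read 38.8, 17.6 and 7.61 CPM against 10.2, 9.17 and 6.79 CPM, and Col16a1 6.94, 2.51 and 1.28 CPM against 1.77, 1.95 and 0.849 CPM. Each has its top value in wild-type replicate 1 and groups that overlap. Log2 fold changes were -2.91 (SE 0.94, unadjusted p = 0.00735) for Col12a1, -1.29 (SE 0.60, unadjusted p = 0.0471) for Col14a1 and -1.24 (SE 0.54, unadjusted p = 0.0379) for Col16a1. Without that library they were -0.81, -0.52 and -0.29.

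A few members had groups that did not overlap at 2 months. Col8a1, a short chain that forms networks in vessel walls, read 22.5, 17.2 and 19.1 CPM in wild-type and 15.9, 13.7 and 11.5 CPM in knockout hearts. Its log2 fold change was -0.52 (SE 0.34), and -0.40 without wild-type replicate 1. Loxl2, a lysyl oxidase that also acts on basement membranes, read 6.98, 7.82 and 6.99 CPM against 5.25, 5.98 and 5.86 CPM (-0.35, SE 0.45, and -0.37 without that library). Col23a1 read 1.24, 1.73 and 0.657 CPM against 0.657, 0.532 and 0.404 CPM, with the lowest wild-type just above the highest knockout heart, and its log2 fold change of -1.17 (SE 0.55) stayed at -1.13 without wild-type replicate 1. These 3 members were all lower in knockout hearts, where 3.72% of all genes were separated in that way, and 0 were separated and higher (4.43% of all genes). Col23a1 and Adamts2 lie on chromosome 11 at 1.08 Mb and 391 kb from Sqstm1, P4ha2 at 3.89 Mb and Col1a1 at 44.7 Mb.

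**Figure D4:**
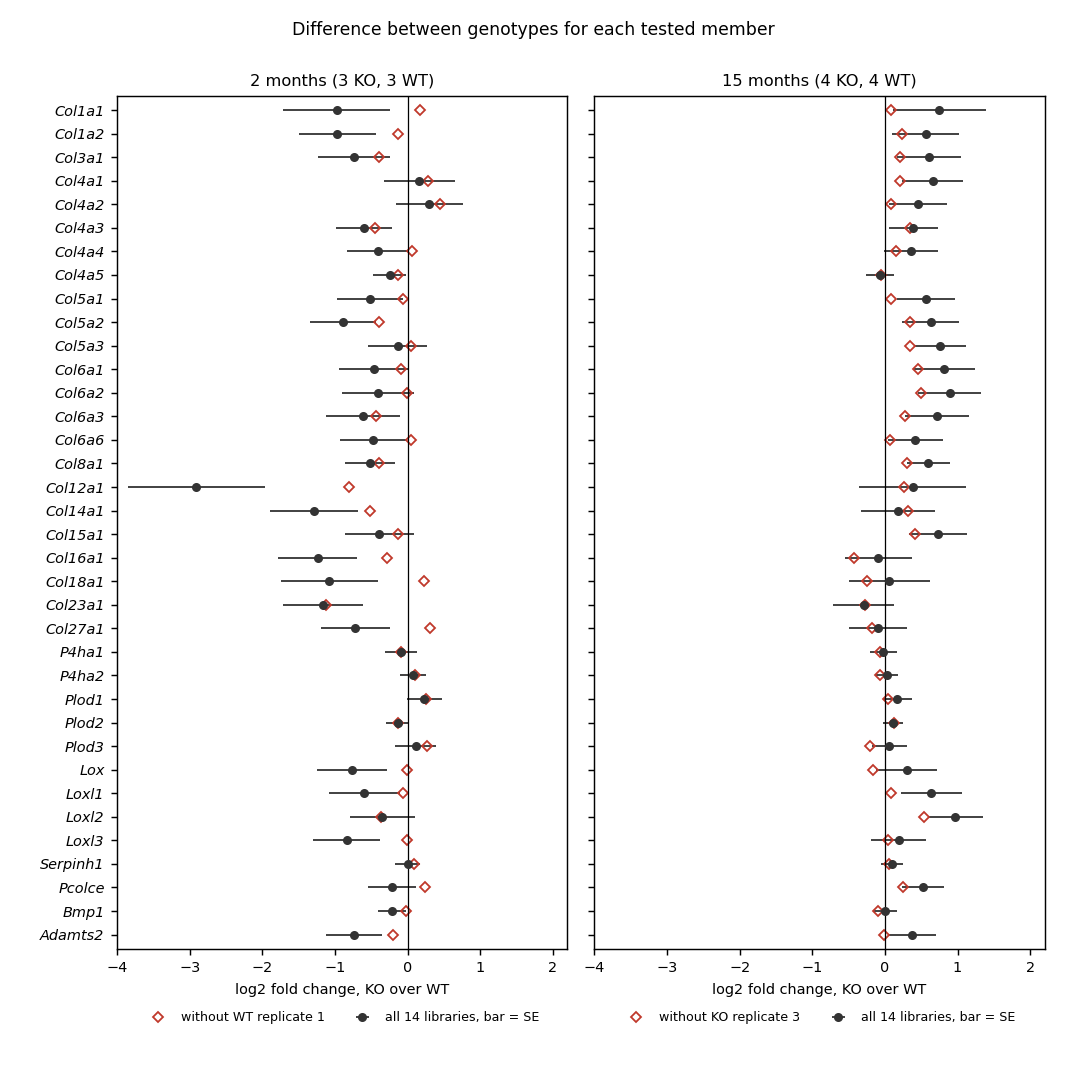
Log2 fold change of knockout over wild type (x axis) for each tested member (rows) at 2 months (left, 3 against 3 hearts) and 15 months (right, 4 against 4), with bars of 1 SE, and open diamonds for the value without wild-type replicate 1 or knockout replicate 3. Most points lie below 0 at 2 months and above 0 at 15 months, and most diamonds lie closer to 0.

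At 15 months the members leaned the other way, again with no gene called among them. Of the 36 members, 30 had a higher mean in knockout hearts (51.7% of all genes did), with a median log2 fold change of 0.39. The 4 collagen VI chains (median 0.77), 6 of the 7 fibrillar chains (0.61 over all 7), 4 of the 5 collagen IV chains (0.39 over the 5) and the 4 lysyl oxidases (0.47) were above 0. Lysyl hydroxylases stood at 0.11 and prolyl 4-hydroxylases at 0.01. Sqstm1 was again the only called gene (0.00644%), 2 members had an unadjusted p under 0.05 where 3.97% of all genes did, and DESeq2 and limma voom called 0 members. In no member were the groups separated, where 0.76% of all genes were separated and higher and 1.23% separated and lower.

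Knockout replicate 3 set much of this difference. Col4a1 read 199, 69.4, 149 and 155 CPM in wild-type and 58.9, 242, 409 and 195 CPM in knockout hearts. Col6a1 read 22.0, 11.4, 37.9 and 31.7 CPM against 16.2, 54.0, 76.1 and 34.8 CPM. In both genes the knockout group holds the highest heart, replicate 3, and a low one, replicate 1, on either side of the wild-type hearts or near their lower end. Loxl2 read 5.03, 2.32, 7.57 and 6.52 CPM against 3.61, 10.1, 18.5 and 9.51 CPM, and its log2 fold change of 0.97 (SE 0.38, unadjusted p = 0.0239) became 0.54 without replicate 3. Col5a3 read 4.89, 2.48, 4.81 and 5.42 CPM against 3.29, 6.64, 13.1 and 6.69 CPM, and its 0.76 (SE 0.35, unadjusted p = 0.0482) became 0.34. Over all 36 members the median without that heart was 0.09, with 25 above 0. Leaving out wild-type replicate 2 gave 0.22, and leaving out knockout replicate 1 gave 0.59. With the length slope as covariate it was 0.07 over all members, 0.19 over fibrillar chains, 0.01 over collagen IV chains, 0.40 over collagen VI chains and 0.11 over lysyl oxidases. Col1a1 read 21.6, 10.3, 40.7 and 25 CPM in wild-type and 8.52, 41.6, 87.2 and 26.8 CPM in knockout hearts, and here too replicates 1 and 3 of the knockout group are its lowest and highest hearts.

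Averaged over both ages, the members were spread around 0, with a median log2 fold change of -0.03, 16 above and 20 below. Without wild-type replicate 1 at 2 months the median was 0.15, with 9 below 0. No member was called (0.00644% of all genes were), and 1 had an unadjusted p under 0.05, where 3.26% of all genes did. This average and the comparison at each age share their samples. The difference between the genotype effects at 15 and 2 months was above 0 for 33 of the 36 members (50.7% of all genes) and for all 23 tested chains, with a median of 1.05. It was 1.12 over the chains and 0.25 over the processing genes. No gene of any kind was called for this difference (0.0%), nor did DESeq2 or limma voom call a member, while 6 members had an unadjusted p under 0.05, where 3.72% of all genes did. These were Col12a1 (3.29, SE 1.19), the fibrillar chains Col5a2 (1.52) and Col1a2 (1.53), Loxl2 (1.31), Col8a1 (1.12) and Adamts2 (1.10). Without wild-type replicate 1 at 2 months 0 members had an unadjusted p under 0.05 (the lowest was 0.0585, for Col8a1), and Col12a1 stood at 1.2, Col1a2 at 0.71 and Adamts2 at 0.57. The median over the members was 0.48 without wild-type replicate 1 at 2 months and 0.70 without knockout replicate 3 at 15 months.

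With age, the members leaned lower in wild type and higher in the knockout, without calls, and the opposite signs were lost without 1 library or with the length slope as covariate. In wild-type hearts 28 of 36 members were lower at 15 months (51.7% of all genes were), with a median log2 fold change of -0.37. All 7 fibrillar chains were below 0, with a median of -0.83. In knockout hearts 31 of 36 were higher (50.6% of all genes), with a median of 0.61 and medians of 0.98 for collagen VI and 0.85 for lysyl oxidases. Both medians moved without the hearts named above. Wild type stood at 0.08, with 14 of 36 below 0, without its replicate 1 at 2 months. The knockout median was smaller but still above 0, at 0.28 with 28 of 36 members above 0, without its replicate 3 at 15 months. With the length slope as covariate both medians were below 0, at -1.2 and -0.51. In wild type 0 members were called where 1.04% of all genes were, and 8 had an unadjusted p under 0.05 against 23.8% of all genes. In the knockout 0 were called against 2.25%, and 6 had an unadjusted p under 0.05 against 26.7%. DESeq2 called P4ha2 in wild type (adjusted p = 0.0287) and Col23a1 (adjusted p = 0.0128) and P4ha2 (adjusted p = 0.028) in the knockout, and limma voom called 0. Without knockout replicate 1 at 15 months the knockout comparison called 6 of the 36 members, all higher with age: Col23a1, Col6a2, Col6a6, Loxl2, P4ha2 and Plod3. In that fit 3523 genes in all were called, against 349 with all libraries, so the count rose over all genes and not only among members.

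Few members were separated by age within a genotype. In wild type P4ha2 and Plod3 were higher in every old than in every young heart, where 8.6% of all genes were, and Col4a3, Col5a3 and Serpinh1 lower, where 7.57% were. In the knockout Col23a1 and P4ha2 were higher, where 8.83% of all genes were, and Serpinh1 lower, where 11.3% were. P4ha2 and Serpinh1 were in both sets.

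Averaging the age difference over both genotypes, a comparison added after the data were seen, called 4 of the 36 members, 11.1%, against 23.9% of all genes. At an unadjusted p under 0.05 there were 6 members, against 39.2% of all genes. Both shares of members, 11.1% and 16.7%, lie below those of all genes, a gap that was not tested. Higher at 15 months were 3 members, P4ha2, Plod3 and Col23a1 (10.8% of all genes were called higher), and lower was Serpinh1 (13.1% of all genes). DESeq2 and limma voom also called 4. The count was 2 without wild-type replicate 2 or knockout replicate 1 at 2 months, and 6 without knockout replicate 1 at 15 months. It was 8 without wild-type replicate 1 at 2 months, where Col18a1, Col27a1, Col6a6 and Loxl3 were called higher as well. With single libraries left out, the count over all genes ran from 1531 to 5589, against 3712 with all libraries. That count was lowest without knockout replicate 1 at 2 months and highest without knockout replicate 1 at 15 months. Whether the members' count moved more than that of all genes was not tested. The median over the members was 0.12, with 25 above 0, where 50.1% of all genes were.

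Of these, P4ha2 (GRCm38 chr11:54100095-54131665, plus strand) separated the ages most clearly. It read 16.2, 13.1 and 17.4 CPM in young wild-type and 14.8, 17.5 and 16.8 CPM in young knockout hearts. The old hearts read 27.4, 19.1, 22.4 and 25.5 CPM in wild type and 18.7, 22.8, 29.3 and 25.8 CPM in the knockout. Every old heart lies above every young one, so that P4ha2 was the only member separated by age over both genotypes (1.86% of all genes were separated and higher, 1.4% separated and lower). The log2 fold change was 0.58 (SE 0.12, adjusted p = 0.0075), and P4ha2 was called whichever library was left out.

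Plod3 (chr5:136987019-136996648, plus strand), which hydroxylates lysine and also adds sugars to it, rose by 0.63 (SE 0.19, adjusted p = 0.0265). It read 14.2, 9.31 and 12 CPM in young wild-type, 10.6, 13.8 and 13.9 CPM in young knockout, 20.8, 15.8, 19.8 and 18.3 CPM in old wild-type and 10.3, 18, 29.1 and 20.2 CPM in old knockout hearts. Only knockout replicate 1 lies among the young hearts. Exons at the 5′ end of Plod3 share 529 bases with those of Znhit1 on the opposite strand, and since no strand setting of the counting is stated, reads of both genes cannot be told apart there. The adjusted p was 0.0521 to 0.0761 without any one of wild-type replicates 2 and 3 or knockout replicate 1 at 2 months or wild-type replicate 1 at 15 months.

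Col23a1 (chr11:51289920-51583918, plus strand), a transmembrane collagen that can be shed from the cell surface, rose by 1.35 (SE 0.35, adjusted p = 0.0176) from a low level. The young hearts read 1.24, 1.73 and 0.657 CPM in wild type and 0.657, 0.532 and 0.404 CPM in the knockout. The old hearts read 1.58, 2.4, 3.64 and 1.33 CPM and 1.73, 3.06, 1.78 and 0.715 CPM. In the knockout every old heart is above every young one, in wild type the ranges overlap, and the call held with each library left out.

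Serpinh1 (chr7:99345376-99353239, minus strand), the chaperone with the highest level per length, fell by 0.40 on the log2 scale (SE 0.11, adjusted p = 0.0243). It read 180, 161 and 145 CPM in young wild-type and 165, 165 and 156 CPM in young knockout hearts, and 128, 101, 106 and 140 CPM in old wild-type and 97.4, 123, 138 and 151 CPM in old knockout hearts. The old hearts are lower in each genotype, although the highest old knockout heart is above the lowest young wild-type heart. Without wild-type replicate 2 or knockout replicate 1 at 2 months, or wild-type replicate 3 at 15 months, the adjusted p was 0.0574, 0.0626 and 0.0528.

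Since the length slope also differed between the ages, the fit was repeated with it as a covariate, again after the data were seen. Serpinh1 was still lower (-0.65, adjusted p = 0.0228). Col23a1 kept its fold change (1.34) but not its call (adjusted p = 0.252), P4ha2 stood at 0.22 (adjusted p = 0.438), and Plod3 at -0.05 (adjusted p = 0.925). The median over the 36 members went from 0.12 to -0.87, so the direction of the members as a group with age depends on this term. Since the slope itself differs between the ages, age and length slope cannot be fully told apart in these libraries.

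**Figure D5:**
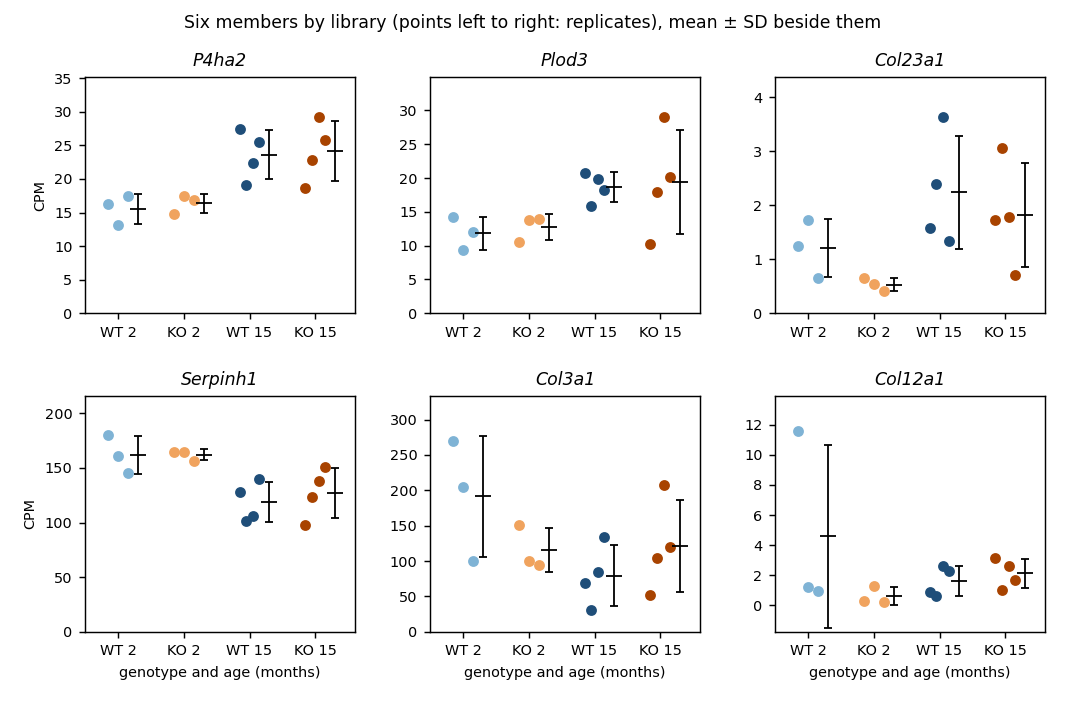
CPM of P4ha2, Plod3, Col23a1, Serpinh1, Col3a1 and Col12a1 in each library, grouped by genotype and age in months, with the mean ± SD beside the points. P4ha2 is higher in all 8 old than in all 6 young hearts, whereas Col3a1 and Col12a1 are highest in wild-type replicate 1 at 2 months, at 270 CPM against at most 208 and at 11.6 against at most 3.18.

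The upstream sequences of 3 of these 4 genes are shown to give the letters that precede their start sites. They are from RefSeq on GRCm38.p6, 250 bases ending just before the start, read 5′ to 3′ on the gene's strand. That of P4ha2 is chr11:54100674-54100923 (plus strand), which lies within a longer GENCODE M21 model of the gene but in no exon, that of Col23a1 is chr11:51289670-51289919 (plus strand), and that of Serpinh1 is chr7:99353240-99353489 (minus strand). Capitals mark matches to GGGCGG, the core of an Sp-family box, and ACGTG, part of a hypoxia response element, which do not overlap each other. On the opposite strand these read CCGCCC and CACGT, in that order. CCAAT and TATAA, and GAANNTTC, an inverted pair of heat shock factor units, were also searched and have no match in these windows.
P4ha2: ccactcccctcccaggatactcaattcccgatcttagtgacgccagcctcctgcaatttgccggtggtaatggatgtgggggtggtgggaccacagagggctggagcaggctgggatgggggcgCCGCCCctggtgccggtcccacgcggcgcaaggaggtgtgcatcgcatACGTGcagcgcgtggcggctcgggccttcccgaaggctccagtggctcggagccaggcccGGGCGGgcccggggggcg
Col23a1: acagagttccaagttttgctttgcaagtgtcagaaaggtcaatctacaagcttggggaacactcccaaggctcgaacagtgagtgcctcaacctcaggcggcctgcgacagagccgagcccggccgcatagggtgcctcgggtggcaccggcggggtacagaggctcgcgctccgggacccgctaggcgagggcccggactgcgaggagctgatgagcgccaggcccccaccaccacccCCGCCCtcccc
Serpinh1: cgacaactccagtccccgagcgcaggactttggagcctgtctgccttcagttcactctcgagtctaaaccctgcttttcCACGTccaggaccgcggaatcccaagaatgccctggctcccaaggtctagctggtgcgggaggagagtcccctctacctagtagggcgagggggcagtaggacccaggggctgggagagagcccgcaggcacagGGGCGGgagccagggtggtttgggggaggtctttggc

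P4ha2 had a GGGCGG on each strand and an ACGTG, Col23a1 a single GGGCGG on the opposite strand, and Serpinh1 a GGGCGG and, on the opposite strand, an ACGTG. RefSeq windows reaching from 250 bases before to 50 after the start were at hand for 28 of the 39 members, with 30 windows in all. Only the 250 bases before the start were searched, in these and in the windows of all genes. GGGCGG was in 73.3% of the members' windows and in 32.7% of the 32851 windows of all genes, and ACGTG in 26.7% against 16.6%. CCAAT was in 30.0% against 33.8%, TATAA in 6.67% against 22.8% and GAANNTTC in 3.33% against 6.69%. The members' windows also had more G and C, a median of 62.4% against 52.4%, which bears on any count of GC-rich letters. A match is a run of letters and not a measured binding site.

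Some chains are made from head-to-head gene pairs, and the ratios of partner chains could be read within a library. Col4a3 and Col4a4, which encode chains of a basement membrane network best known from kidney and start from opposite strands on chromosome 1, leave a gap of 71 bases between their start sites, chr1:82586850-82586920 in GENCODE M21, shown here on the Col4a4 strand; none of the searched motifs is in it.
Col4a4 and Col4a3 gap: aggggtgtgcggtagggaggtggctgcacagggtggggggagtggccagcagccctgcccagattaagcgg

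On the log2 scale per kilobase, Col4a3 stood between 1.91 below and 0.25 below Col4a4 in single libraries. Col4a1 and Col4a2, a head-to-head pair on chromosome 8 whose ends share 22 bases, were much closer to each other. Their log2 ratio was 0.28 to 0.39 in young wild-type and 0.11 to 0.27 in young knockout hearts, and -0.18 to -0.04 in old wild-type and -0.11 to 0.20 in old knockout hearts. The genotypes did not overlap at 2 months, by a narrow margin (0.28 against 0.27), and the ages did not overlap in wild type. Both chains varied several fold between hearts. Neither separation was particular to this pair. Col5a1 to Col5a2 had both, at 0.1 to 0.48 in young wild-type, 0.49 to 0.81 in young knockout and 0.53 to 1.69 in old wild-type hearts. Col4a3 to Col4a4 was also separated by age in wild type, at -1.07 to -0.25 against -1.91 to -1.17. Col6a1 and Col6a2, neighbours on chromosome 10, kept a log2 ratio of 0.61 to 0.82 in all 14 libraries, while Col5a1 to Col5a2 ran from 0.1 to 1.69, Col1a1 to Col1a2 from -0.67 to 0.82, and Col1a1 to Col3a1 from -2.58 to -0.47. No test was made on these ratios, and the length slope, which also differed between the ages, was not taken into account in them.

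Among related genes, 0 of the 19 other collagen chains, of which 7 were tested, were called in any comparison between genotypes or ages. Their smallest p-values between genotypes belonged to Col4a6 at 2 months (-2.12, SE 0.88) and Col28a1 at 15 months (1.5, SE 0.53). Both had few reads. Col4a6 had a mean of 1.67 CPM (SD 2.08) in young wild-type and 0.387 CPM (SD 0.164) in young knockout hearts. Col28a1 had 0.258 CPM (SD 0.104) in old wild-type and 0.731 CPM (SD 0.462) in old knockout hearts. Of 24 further genes for folding, modification and export of collagen, all tested, 0 were called between genotypes. With age over both genotypes, 4 fell and 2 rose, 6 of 24, a share near the 23.9% of all genes called in that comparison. The 4 with the smallest p-values fell: Ppib, the prolyl isomerase of the endoplasmic reticulum, by 0.64 (SE 0.13, adjusted p = 0.00687), P4hb, the shared non-catalytic subunit of prolyl 4-hydroxylase, by 0.48 (SE 0.10, adjusted p = 0.00753), Sparc, a collagen-binding matrix protein, by 0.53 (SE 0.11, adjusted p = 0.00836), and the procollagen enhancer Pcolce2 by 0.52 (SE 0.11, adjusted p = 0.00895). Within a genotype, Sparc was called in wild type (-0.73, adjusted p = 0.043) and P4hb in the knockout (-0.66, adjusted p = 0.0306). Values of the related genes are from the fit without the length slope as covariate. None of the 15 tested genes of collagen breakdown and none of the 9 tested collagen receptors was called in any comparison, with the smallest adjusted p for age over both genotypes at 0.0664 for Timp4, an inhibitor of matrix proteases (-0.72), and 0.0583 for Itga1, an integrin subunit (0.61). Their median log2 fold changes between genotypes were -0.28 and -0.07 at 2 months and 0.34 and 0.22 at 15 months. In wild-type replicate 1 at 2 months the median relative level was 0.52 for breakdown genes and 0.38 for receptors. In knockout replicate 3 at 15 months it was 0.82 and 0.19. No values without these hearts are given for the related lists, so these medians are not separate from those of the members.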

How the data were processed

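RNA-seq of whole hearts was analysed from the raw counts the authors deposited, whole numbers of reads per gene for 14 libraries (3 wild-type and 3 knockout at 2 months, 4 and 4 at 15 months), grouped by their labels. Per the submitters' processing notes, featureCounts 1.6.3, STAR 2.7.3a, DESeq2 1.26.0, cutadapt 1.16 and build GRCm38 were used. Strand setting and annotation release of the counting are not given in the sources used for this report, so reads of overlapping genes on opposite strands may be shared. The kit marks strand and depletes ribosomal RNA, per the labels' protocols. Symbols, positions and exon lengths came from GENCODE M21, which held 55227 of 55487 identifiers. There were 0 columns of values without a sample.

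Counts were fitted with edgeR 4.0.16 in R 4.3.3 (filterByExpr by the 4 groups, minimum count 10 and total 15, leaving 15528 genes; TMM scaling; robust quasi-likelihood F-test; all 14 libraries) in 6 comparisons and 1 added later, with Benjamini-Hochberg adjustment over all genes and a threshold of 0.05. An SE is the log2 fold change divided by the square root of F. The code was tested on simulated data. For Sqstm1, an exact permutation test (two-sided) on log2 CPM gave p = 0.1 at 2 months, the smallest 3 against 3 allows, and p = 0.0286 at 15 months. Relative levels are log2(CPM + 0.5) minus the gene's mean. The lowest chi-square between libraries was 17.9 per degree of freedom, so no pair of libraries differed by counting noise alone. That does not show that they came from separate animals. Alternatives were DESeq2 1.42.0, limma voom 3.58.1, other scaling, filters and thresholds, fewer libraries, a replicate block, no mitochondrial genes and, added after seeing the data, the length slope as covariate.

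The members, the related lists and the markers were chosen with earlier results of these data known. All 39 members are named. Of each related list, up to 4 called genes, or otherwise up to 2, with the smallest p-values are named. Whether the replicate numbers pair the libraries is given with the limits.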

Additional observations from a re-analysis of the deposited data

Results flagged for a closer look

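Col14a1, a fibril-associated collagen, stood at 22.5 CPM in knockout replicate 2 at 15 months, against 9.78 to 11.7 CPM in the other 3 knockout hearts of that age. The gap to the nearest of these, divided by the range of the group, was 0.853, above the value that Dixon's test takes as unusual for 4 samples. The 36 tested members were looked at in both groups of 15 months, 72 groups in all, and this was the 1 that stood out. Chance gives about 1 in 20, so that more than 1 of 72 groups would stand out by chance alone. Groups of 3 hearts, and with them wild-type replicate 1 at 2 months, were not tested in this way.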

How the results depend on the processing

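Between genotypes no member was called under any setting run, at either age, averaged or as a difference. Counts over all genes moved, from 1 at 2 months to 7 with DESeq2, 4 with the length slope, 3 with no filter and 2 with a filter at mean CPM of 1 or a threshold of 0.1; from 1 at 15 months to 7 with DESeq2 and 2 with only the groups compared; from 1 over both ages to 5 with DESeq2; and from 0 for the difference to 1 with DESeq2. With age in wild type, 161 called genes became 1100 with DESeq2, 86 with only the groups compared, 55 with a replicate block and 706 at a threshold of 0.1, and the members went from 0 to 1 (P4ha2) with DESeq2 and at 0.1 and to 5 with the length slope (Adamts2, Col4a1, Col5a3, Loxl1 and Pcolce, all lower), where 112 of the 15528 genes were called. In the knockout, 349 became 1622, 134, 70 and 1616 in that order and 61 with the slope, and the members went from 0 to 2 (Col23a1 and P4ha2) with DESeq2 and at 0.1, and to 1 with no filter (Col23a1) or with the slope (Col4a1). Over both genotypes, 3712 became 1365 with the block, where 3 members were called and Plod3 was lost (adjusted p = 0.0689), and 187 with the slope, where 6 were called. The slope took the members' median with age to -1.2 in wild type, -0.51 in the knockout and -0.87 over both, and turned Col4a1 to -1.26 in all 3, and over both genotypes Col4a2 to -0.86, Plod3 to -0.05, Loxl1 to -1.10 and Adamts2 to -0.84. The cause was not tested.

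Leaving out each library in turn gave the following ranges. Called genes were 1 to 3 at 15 months, 38 to 796 with age in wild type, 49 to 3523 with age in the knockout, 1531 to 5589 over both genotypes and 0 to 1 for the difference, and 1 throughout at 2 months and over both ages. The 3 age counts were highest without knockout replicate 1 at 15 months, and lowest without wild-type replicate 2 at 2 months (wild type) or knockout replicate 1 at 2 months (knockout and both). Called members were 0 to 1, 0 to 6 and 2 to 8 in the age comparisons, the 6 without knockout replicate 1 at 15 months, the heart with the most mitochondrial reads (Col23a1, Col6a2, Col6a6, Loxl2, P4ha2 and Plod3). The members' median ran from -0.71 to -0.06 at 2 months, 0.09 to 0.59 at 15 months, -0.15 to 0.15 over both ages, 0.48 to 1.31 for the difference, -0.53 to 0.08, 0.28 to 0.81 and -0.04 to 0.34 with age in wild type, knockout and both. Over all settings, 10, 15, 22 and 7 of 36 members turned sign at some setting in the genotype comparisons and the difference, and 19, 28 and 25 with age. The equal replicate numbers did not pair the libraries (19 pairs correlated at -0.48 to 0.50, median 0.03, 7 of them over 0.1). The fit with only the groups compared gives no value for averages and differences.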

Other observations

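Genes that signal to and build upon collagen fibrils were measured in the same libraries. Of 22 genes of the TGF-beta pathway, a main inducer of collagen transcripts, 0 were called between genotypes, with medians of -0.21 at 2 months and 0.18 at 15 months. Their median relative level was 0.19 in wild-type replicate 1 at 2 months and 0.54 in knockout replicate 3 at 15 months. The part of these 2 hearts in the medians was not tested. With age over both genotypes 5 rose and 2 fell, 7 of 22, where 23.9% of all genes were called, and the 4 with the smallest p-values by edgeR all rose: the receptor Tgfbr2 by 0.75 (adjusted p = 0.0129), the ligand Tgfb2 by 0.98 (adjusted p = 0.0147), the co-receptor Eng by 1.04 (adjusted p = 0.0148) and the signal carrier Smad2 by 0.34 (adjusted p = 0.0211). In the same comparison 4 of the 8 endothelial markers were called higher (median 0.49), and Eng is itself known as an endothelial gene; their part in these values was not tested.

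Of 18 small leucine-rich proteoglycans, laminins and other fibril partners, 0 were called between genotypes, with medians of -0.29 at 2 months and 0.60 at 15 months. With age over both genotypes 2 of the 18 rose and 1 fell, a share below the 23.9% of all genes called, a gap that was not tested. The laminin chain Lama5 rose by 1.17 (adjusted p = 0.00883) and the matricellular Thbs2 by 0.86 (adjusted p = 0.0425). The fibril-binding Dpt, also a fibroblast marker here, fell by 0.72 on the log2 scale (adjusted p = 0.013). The age values of these genes and of the TGF-beta genes are from the fit without the length slope as covariate. With that covariate the median of the collagen members with age over both genotypes went from 0.12 to -0.87. In knockout replicate 3 at 15 months the median relative level of these 18 genes was 1.28, beside 0.92 for the collagen members. In wild-type replicate 1 at 2 months it was 0.39, beside 0.69. The part of these 2 hearts in the medians between genotypes was not tested.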
